A study of Mus musculus with 32 samples.

Results

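The 9 genes described here encode complement components and receptors that macrophages express: C1qa, C1qb and C1qc (the chains of C1q), C3, Cfb (factor B), Cfp (properdin), and the receptors C3ar1, C5ar1 and C5ar2. They were chosen by name from the 25067 genes of the count table, each through the RefSeq transcript with the highest mean count, and all 9 passed the filter on low values, so that 9 of the 11186 genes tested are members.

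RNA-seq was measured in bone marrow-derived macrophages (BMDMs) of male C57Bl6/J mice aged 6 to 12 weeks, grown for 7 days with L929-conditioned medium. BMDM-WT came from wild-type littermates, and BMDM-Nur77-KO from mice with a whole-body deletion of loxP-flanked Nr4a1, the gene of the nuclear receptor Nur77. The deletion was made with Cre under the CMV promoter. Cre was bred out afterwards, and the labels give the genotype as cre. Cells of each genotype were left without LPS (0 h) or stimulated with 100 ng/ml LPS for 1, 5 or 18 h, with 4 libraries in each of the 8 groups. The number of animals behind the 4 libraries is not given in the sources used here, so p-values measure only the spread between these libraries, which may be technical.

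Complement is a cascade of plasma proteins that tags microbes and dying cells for uptake and calls in leukocytes. C1q starts the classical pathway when it binds antibody or other targets, C3 is the component on which all pathways converge, and factor B and properdin build and stabilize the C3 convertase of the alternative pathway. The small fragments C3a and C5a, released by cleavage, act on cells through C3ar1, C5ar1 and C5ar2. Macrophages are a main source of C1q, make properdin, and respond to both fragments.

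Library totals were 8742362 to 15780926 tags. Values are given as CPM (counts scaled to library size) with TMM factors, and as RPKM where genes are compared with each other. The summed level of the 6 macrophage markers, all of which passed the filter on low values, was 5030 to 9120 CPM in single libraries. In BMDM-Nur77-KO the sum was 5030 to 5540, 5360 to 6030, 5490 to 6350 and 6580 to 7760 CPM at 0, 1, 5 and 18 h. In BMDM-WT it was 5610 to 6760, 6010 to 6660, 6720 to 7310 and 8920 to 9120 CPM. The genotypes overlapped at 1 h alone. The markers did not move as 1 at 18 h, where 1 of the 6 was higher in BMDM-Nur77-KO and 4 were lower (12.3% and 9.44% of all genes). Summed markers of neutrophils were at 9.53 to 30 CPM, of B cells at 1.52 to 4.73, of T cells at 3.88 to 40.7, of dendritic cells at 1.21 to 26.6, of mast cells at 0.246 to 5.34, of fibroblasts at 0 to 1.89 and of erythroid cells at 0 to 0.479. The T cell sum was highest at 5 h in both genotypes, but only 2 of its 5 markers passed the filter. Of these 2, 1 rose from 0 to 5 h in each genotype (30.8% of all genes in BMDM-WT, 33.1% in BMDM-Nur77-KO). The other fell in BMDM-Nur77-KO (38.2% of all genes). The dendritic cell sum at 18 h was 13.5 to 21.8 CPM in BMDM-Nur77-KO and 5.15 to 7.17 CPM in BMDM-WT. The part of these cell types in the results was not tested. In bulk libraries, fewer cells of a type and less RNA per cell cannot be told apart.

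Nr4a1 was at 19.2, 15.5, 25.5 and 18.1 CPM in BMDM-WT and at 4.88, 4.57, 4.42 and 6.92 CPM in BMDM-Nur77-KO at 0 h. At 1 h it was at 483, 483, 358 and 422 CPM in BMDM-WT and at 244, 178, 146 and 194 CPM in BMDM-Nur77-KO. Nr4a1 was thus lower in every library of the knockout at these times without being absent, with a log2 fold change of -1.91 ± 0.19 (SE) at 0 h (adjusted p = 1.5e-08, edgeR quasi-likelihood test, as for all log2 fold changes here) and -1.20 ± 0.15 at 1 h (adjusted p = 2.0e-06). At 5 and 18 h the gene was near the detection limit in both genotypes.

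Per transcript length, the C1q chains and the 3 most abundant other members were far above the rest in unstimulated BMDM-WT. The mean RPKM at 0 h was 890 for C1qb, 584 for C1qc, 346 for C3ar1, 298 for Cfp, 256 for C5ar1 and 84.6 for C1qa. It was 9.01 for C3, 3.19 for C5ar2 and 0.617 for Cfb. At 18 h of LPS the order in BMDM-WT was C1qb at 733, C3 at 568, C3ar1 at 517, C1qc at 422, Cfb at 346, Cfp at 259, C1qa at 79.6, C5ar1 at 33.2 and C5ar2 at 1.43 RPKM. C3 and Cfb thus moved from the bottom of the order to the level of C1q and properdin, while C5ar1 moved the other way.

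**Figure D1:**
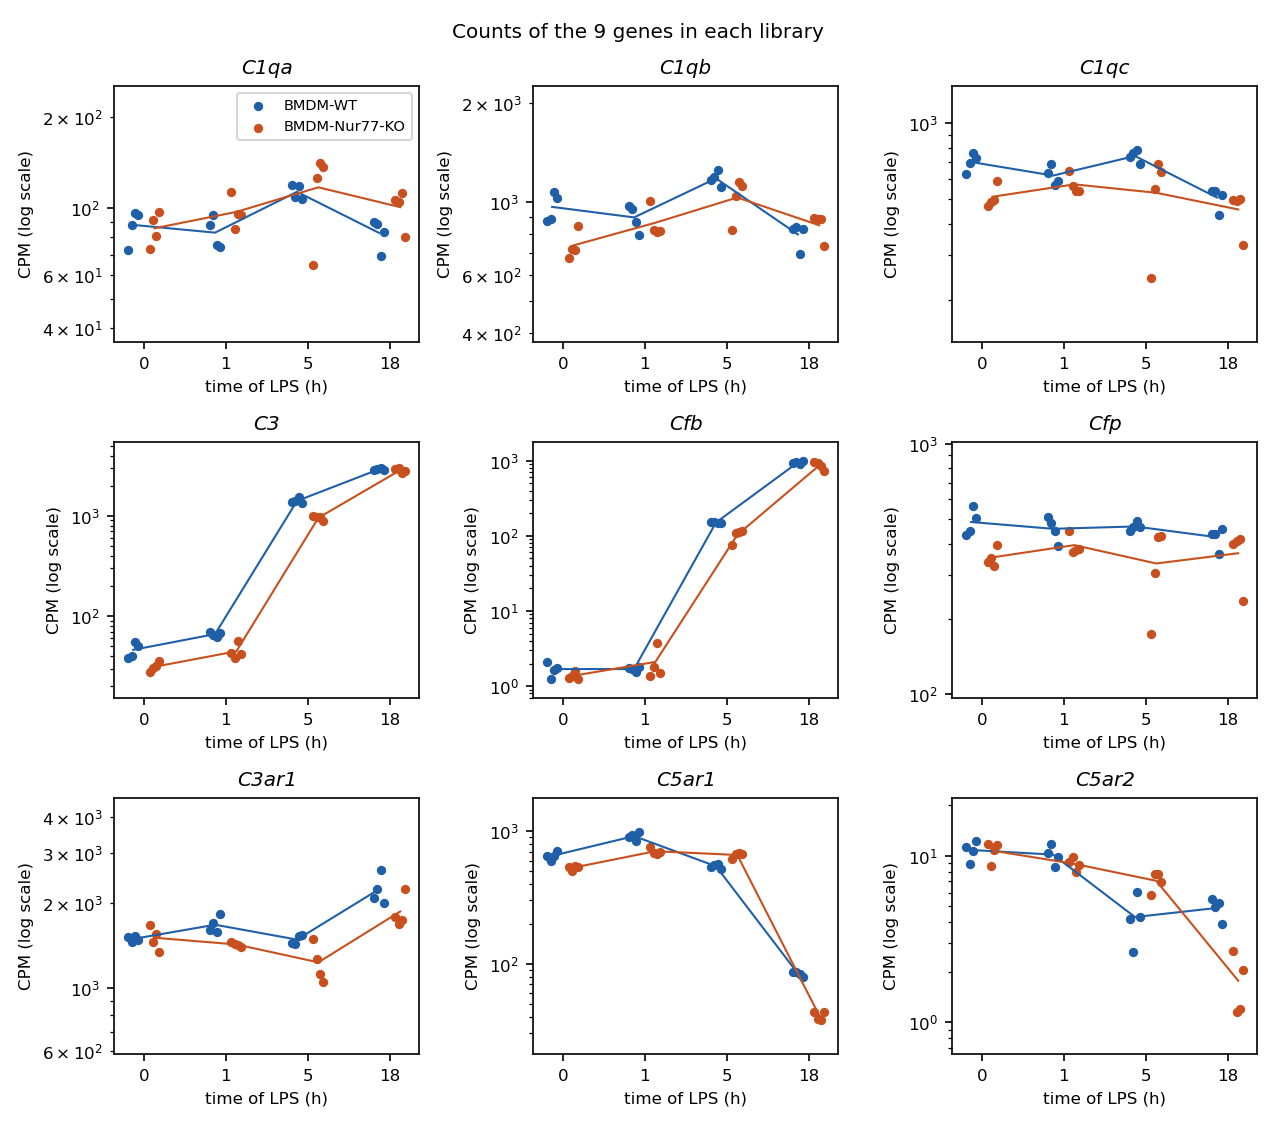
CPM (log scale) of the 9 genes in each of the 32 libraries at 0, 1, 5 and 18 h of LPS; points are single libraries, slightly offset, and lines join the group means of BMDM-WT (blue) and BMDM-Nur77-KO (orange). C3 and Cfb climb by orders of magnitude, C5ar1 falls at 18 h in both genotypes and lies lower in BMDM-Nur77-KO there, and 1 BMDM-Nur77-KO library at 5 h lies low for C1qa, C1qc and Cfp.

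The components C3 and Cfb rose most with LPS. C3 was at 38.3, 40, 55.9 and 50.8 CPM in BMDM-WT at 0 h, at 70, 64.8, 62.5 and 68.2 CPM at 1 h, at 1370, 1400, 1540 and 1330 CPM at 5 h, and at 2850, 2910, 3030 and 2870 CPM at 18 h. Each later group lay above the earlier ones with no overlap. The log2 fold change against 0 h was 0.52 ± 0.10 at 1 h (adjusted p = 3.3e-04), 4.93 ± 0.12 at 5 h (2.9e-25) and 5.98 ± 0.12 at 18 h (2.4e-26).

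In BMDM-Nur77-KO, C3 was at 27.5, 30.8, 31.6 and 35.4 CPM at 0 h, at 42.8, 37.9, 56.2 and 41.9 CPM at 1 h, at 987, 974, 966 and 898 CPM at 5 h, and at 2910, 3020, 2680 and 2830 CPM at 18 h. C3 was lower than in BMDM-WT in every library at 0, 1 and 5 h, and the genotypes overlapped at 18 h. The log2 fold change between the genotypes was -0.56 ± 0.11 at 0 h (adjusted p = 4.7e-04), -0.57 ± 0.10 at 1 h (4.4e-04), -0.56 ± 0.10 at 5 h (2.0e-04) and -0.03 ± 0.10 at 18 h (0.87). The response at 5 h relative to 0 h was a log2 fold change of 4.93 in each genotype. At 18 h the response was larger in BMDM-Nur77-KO, 6.51 ± 0.13 against 5.98 ± 0.12, and the difference of the responses was 0.53 ± 0.15 (interaction, adjusted p = 0.016). It was 0.43 and did not pass without replicate 3 of BMDM-WT at 0 h. Ordered by mean, BMDM-WT and BMDM-Nur77-KO at 18 h came first and overlapped, followed without overlap by BMDM-WT at 5 h, BMDM-Nur77-KO at 5 h and BMDM-WT at 1 h. BMDM-WT at 0 h overlapped with BMDM-Nur77-KO at 1 h, and BMDM-Nur77-KO at 0 h was lowest.

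Cfb, the serine protease of the alternative pathway convertase, was close to the detection limit before LPS, with 14 to 28 counts per library at 0 h. It was at 2.12, 1.25, 1.65 and 1.73 CPM in BMDM-WT at 0 h and did not pass the test at 1 h (log2 fold change 0.02 ± 0.25, adjusted p = 0.96). At 5 h it was at 154, 151, 147 and 149 CPM and at 18 h at 932, 971, 905 and 982 CPM, a log2 fold change of 6.49 ± 0.19 (1.6e-23) and 9.15 ± 0.20 (4.7e-26). Cfb had the largest fold change with LPS of the 9 members.

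Between the genotypes, Cfb passed the test at 5 h alone among the 4 times. BMDM-Nur77-KO had 75.7, 108, 111 and 117 CPM there, each below the lowest BMDM-WT library, and the log2 fold change was -0.55 ± 0.13 (adjusted p = 0.0039). With the 5 h libraries fitted alone, the difference of Cfb did not pass. At 18 h BMDM-Nur77-KO had 963, 923, 836 and 729 CPM, which overlapped with BMDM-WT (-0.14 ± 0.13, adjusted p = 0.50). The response relative to 0 h did not pass the test of a difference between the genotypes at any time, with 0.58 ± 0.35 at 1 h, -0.28 ± 0.29 at 5 h and 0.13 ± 0.28 at 18 h. The span of Cfb overlaps a second annotated gene, Gm20547, on the same strand, so reads of the pair cannot be told apart in full. Other annotated genes on the same strand overlap Cfb (Mir6972), C3 (Mir6978) and C5ar2 (Gm26473).

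C3 lies at chr17:57203967-57228136 (GRCm38, minus strand; NM_009778) and Cfb at chr17:34856374-34862514 (minus strand; NM_008198), far apart on the same chromosome. Across the 32 libraries, log2 CPM of C3 and Cfb ran together with r = 0.99, a description over points that share groups, and the genes most like C3 were Ube2l6 and Fgl2 (r = 0.996 for each) and those most like Cfb were Ms4a6d and Saa3 (r = 0.996 for each). The 120 bases just before the RefSeq start of C3 (GRCm38.p6, chr17:57228137-57228256, minus strand, printed 5′ to 3′) are shown because C3 was the most abundant induced member; the capitals mark a match to the C/EBP motif TTGCNNAA, 45 to 38 bases before the start.
C3: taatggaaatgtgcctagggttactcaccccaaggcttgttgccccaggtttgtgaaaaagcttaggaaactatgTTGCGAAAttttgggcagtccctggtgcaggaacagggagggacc

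The motifs searched on both strands of the 300-base windows from 250 bases before to 50 after each RefSeq start were the NF-kB consensus, the interferon-stimulated response element GAAANNGAAA, the AP-1 motif TGANTCA and the C/EBP motif TTGCNNAA. They were found in 4.51%, 3.44%, 7.81% and 10.8% of 32851 windows of all genes. Of the 9 members, 7 had a window (8 windows in all), and C1qa and Cfb had none. Matches lay in the windows of C1qc (NF-kB, 41 to 32 bases before the start), C3, C3ar1 and C5ar2. A match describes these letters and shows no binding.

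C5ar1, the G protein-coupled receptor of C5a, rose early and fell late. It was at 651, 595, 652 and 707 CPM in BMDM-WT at 0 h, at 899, 937, 845 and 988 CPM at 1 h, at 538, 559, 562 and 515 CPM at 5 h, and at 87, 87.2, 83.9 and 79.1 CPM at 18 h. No library of a later time overlapped with 0 h. The log2 fold change was 0.49 ± 0.07 at 1 h (adjusted p = 8.1e-07), -0.26 ± 0.07 at 5 h (9.3e-04) and -2.95 ± 0.07 at 18 h (5.9e-25).

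In BMDM-Nur77-KO, C5ar1 was at 539, 503, 548 and 533 CPM at 0 h, at 761, 689, 672 and 702 CPM at 1 h, at 614, 669, 690 and 671 CPM at 5 h, and at 43.6, 38.3, 37.5 and 43.5 CPM at 18 h. The sign of the difference from BMDM-WT changed with time and the groups did not overlap at any of the 4 times. It was lower at 0 h (-0.30 ± 0.07, adjusted p = 0.003) and 1 h (-0.38 ± 0.07, 2.8e-04), higher at 5 h (0.28 ± 0.07, 0.0032) and lower again at 18 h (-1.05 ± 0.07, 1.1e-12). The difference of the responses to LPS was -0.08 ± 0.09 at 1 h (adjusted p = 0.69), 0.58 ± 0.09 at 5 h (3.8e-04) and -0.75 ± 0.10 at 18 h (2.6e-06). From 5 to 18 h, the log2 fold change of C5ar1 was -2.69 ± 0.07 in BMDM-WT and -4.02 ± 0.08 in BMDM-Nur77-KO. Ordered by mean, BMDM-WT at 1 h was highest without overlap; BMDM-Nur77-KO at 1 h overlapped with BMDM-Nur77-KO at 5 h, and the latter with BMDM-WT at 0 h. BMDM-WT at 5 h overlapped with BMDM-Nur77-KO at 0 h. The 18 h groups were lowest and apart. With the 5 h libraries fitted alone, the difference at 5 h was 0.28 with an adjusted p of 0.097.

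C5ar2, the C5a receptor that does not couple to G proteins, was less abundant, and the ratio of C5ar1 to C5ar2 in RPKM was 81 ± 5.79 (SD, n = 4) in BMDM-WT at 0 h. It was at 11.3, 8.9, 10.7 and 12.3 CPM in BMDM-WT at 0 h, at 10.4, 11.8, 8.48 and 9.83 CPM at 1 h, at 4.14, 2.64, 6.07 and 4.26 CPM at 5 h, and at 5.46, 4.92, 5.16 and 3.86 CPM at 18 h. The 5 and 18 h libraries lay below all those of 0 and 1 h (-1.32 ± 0.19 at 5 h, adjusted p = 4.0e-07; -1.15 ± 0.18 at 18 h, 2.0e-06), and the change from 5 to 18 h, 0.17 ± 0.21, did not pass the test.

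BMDM-Nur77-KO had 11.7, 8.7, 10.8 and 11.6 CPM of C5ar2 at 0 h, 9.2, 9.78, 7.96 and 8.72 CPM at 1 h, 5.81, 7.78, 7.73 and 6.9 CPM at 5 h, and 2.69, 1.16, 1.2 and 2.05 CPM at 18 h. The genotypes overlapped at 0 and 1 h, where the differences were -0.01 ± 0.17 and -0.18 ± 0.17. At 5 h C5ar2 was higher in BMDM-Nur77-KO (0.72 ± 0.20, adjusted p = 0.012), with 5.81 CPM in its lowest library below the highest BMDM-WT library, and it was lower without overlap at 18 h (-1.46 ± 0.23, adjusted p = 1.1e-05). These 18 h values rest on few counts, 13 to 30 per BMDM-Nur77-KO library and 45 to 60 per BMDM-WT library. The difference of the responses was 0.73 ± 0.26 at 5 h (adjusted p = 0.14) and -1.45 ± 0.28 at 18 h (6.4e-04), and the change from 5 to 18 h was -2.01 ± 0.22 in BMDM-Nur77-KO (2.3e-09). Without replicate 2 of BMDM-WT at 5 h, or with the 5 h libraries fitted alone (adjusted p = 0.12), the difference at 5 h no longer passed.

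The receptor genes C5ar1 (chr7:16246743-16259540) and C5ar2 (chr7:16234587-16244154) are neighbours on the minus strand of chromosome 7, and each has 2 RefSeq transcripts in the table, of which NM_001173550 and NM_176912 were kept. Both were higher in BMDM-Nur77-KO at 5 h and lower at 18 h, and their log2 CPM had r = 0.81 over the 32 libraries. The genes most like C5ar1 were Dab2 (r = 0.988) and Ccr3 (0.987), and those most like C5ar2 were Pygl (0.942) and Ppp1ccb (0.925). The 250 bases before the upstream RefSeq start of C5ar2 (GRCm38.p6, chr7:16244155-16244404, minus strand) are shown because this stretch lies in the interval between the receptor genes; the capitals mark matches to the C/EBP motif 210 to 203 bases (reverse strand) and 166 to 159 bases before the start.
C5ar2: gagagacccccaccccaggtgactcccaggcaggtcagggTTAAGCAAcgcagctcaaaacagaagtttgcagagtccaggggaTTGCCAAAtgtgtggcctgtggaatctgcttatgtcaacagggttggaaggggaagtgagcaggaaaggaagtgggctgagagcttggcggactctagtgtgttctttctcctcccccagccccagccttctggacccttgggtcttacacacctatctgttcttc

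**Figure D2:**
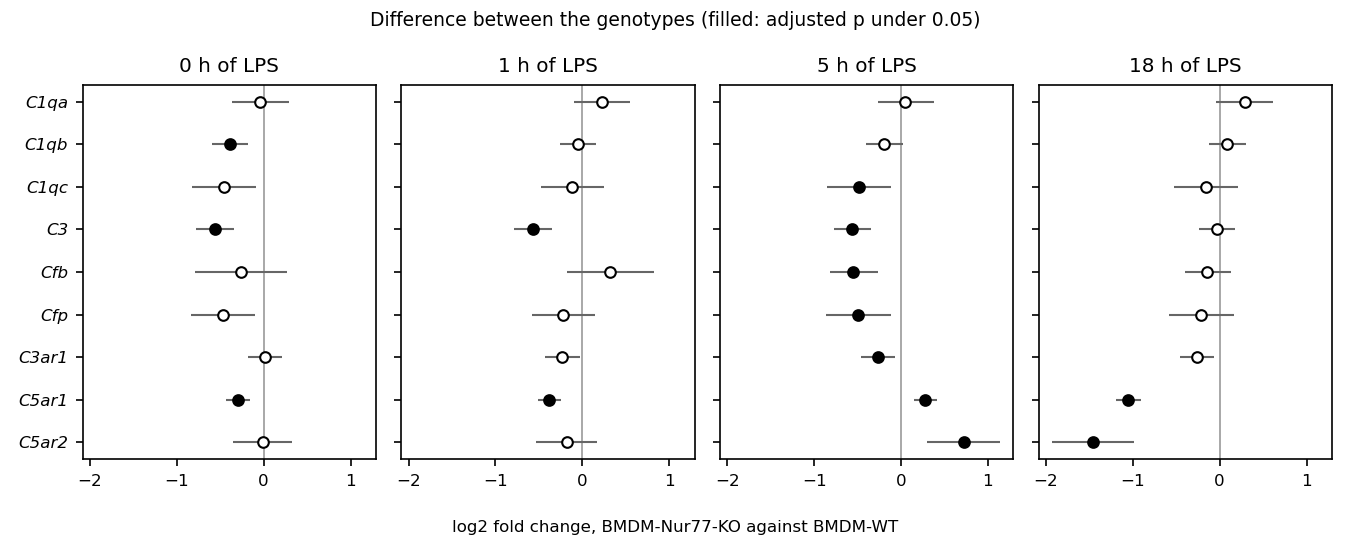
Log2 fold change of BMDM-Nur77-KO against BMDM-WT for each of the 9 genes at 0, 1, 5 and 18 h. The 95% confidence intervals use a standard error derived from the log2 fold change and the F statistic of edgeR's test. Filled points have an adjusted p under 0.05. C3 stays near -0.56 up to 5 h and is at -0.03 at 18 h, and C5ar1 and C5ar2 lie above 0 at 5 h and at -1.05 and -1.46 at 18 h.

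C3ar1, the receptor of C3a, was the most abundant of the receptors and changed less. It was at 1510, 1450, 1520 and 1470 CPM in BMDM-WT at 0 h, at 1600, 1690, 1570 and 1820 CPM at 1 h, at 1440, 1430, 1520 and 1530 CPM at 5 h and at 2080, 2240, 2600 and 1990 CPM at 18 h. In BMDM-WT its rise passed the test at 18 h alone (0.58 ± 0.10, adjusted p = 4.1e-06), with all 4 libraries above those of the earlier times. The 1 h libraries all lay above those of 0 h, but this change did not pass (0.17 ± 0.10, adjusted p = 0.24). In BMDM-Nur77-KO it was at 1670, 1450, 1550 and 1340 CPM at 0 h, at 1450, 1430, 1420 and 1390 CPM at 1 h, at 1490, 1260, 1120 and 1050 CPM at 5 h, and at 1780, 1680, 1740 and 2240 CPM at 18 h.

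C3ar1 thus fell at 5 h in BMDM-Nur77-KO (-0.29 ± 0.10, adjusted p = 0.0088) and rose at 18 h (0.31 ± 0.10, 0.0057); with library totals in place of TMM, the 18 h change was -0.16. Against BMDM-WT it was 0.01 ± 0.10 at 0 h, -0.23 ± 0.10 at 1 h (adjusted p = 0.19), -0.27 ± 0.10 at 5 h (0.044) and -0.26 ± 0.10 at 18 h (0.05, which did not pass). The 5 h call was lost with DESeq2 (-0.24) and when any of 7 of the 8 libraries of that time was left out, with values of -0.20 to -0.28. Leaving out replicate 4 of BMDM-Nur77-KO at 18 h gave -0.36 there, which passed, while the rise from 0 to 18 h was then 0.20 and did not pass. Without replicate 4 of BMDM-WT at 18 h, the difference between the genotypes was -0.32 and passed too. The gene (chr6:122847140-122856157, minus strand; NM_009779) was most like Rnf130 (r = 0.889) and Golph3l (0.880) across the libraries. The 120 bases before its RefSeq start (GRCm38.p6, chr6:122856158-122856277, minus strand) are shown for the AP-1 motif in capitals, 22 to 16 bases before the start, since the study examined the AP-1 family; its palindromic letters match on both strands.
C3ar1: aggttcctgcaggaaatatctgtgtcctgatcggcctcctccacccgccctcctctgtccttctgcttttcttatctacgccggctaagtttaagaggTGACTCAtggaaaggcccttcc

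The C1q chains are encoded side by side on chromosome 4, all on the minus strand: C1qb at chr4:136880126-136886200 (NM_009777), C1qc at chr4:136889801-136892936 (NM_007574) and C1qa at chr4:136895916-136898844 (NM_007572). C1qb was at 877, 891, 1070 and 1030 CPM in BMDM-WT at 0 h and at 677, 721, 714 and 844 CPM in BMDM-Nur77-KO, which did not overlap (-0.39 ± 0.10, adjusted p = 0.01). The call was lost without replicate 1 of BMDM-Nur77-KO (-0.35) or replicate 3 of BMDM-WT (-0.34). At 18 h it was at 828, 841, 694 and 828 CPM in BMDM-WT and at 894, 886, 888 and 734 CPM in BMDM-Nur77-KO (0.09 ± 0.10, adjusted p = 0.57). The difference of the responses at 18 h was 0.48 ± 0.14 (adjusted p = 0.03); it was lost without any of 9 libraries in turn, with values of 0.42 to 0.47, and with library totals (0.39). At 1 h (-0.05 ± 0.10) and 5 h (-0.19 ± 0.10) the genotypes did not pass the test.

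C1qc was at 628, 695, 760 and 726 CPM in BMDM-WT and at 471, 486, 497 and 591 CPM in BMDM-Nur77-KO at 0 h, which did not overlap, although the difference did not pass (-0.46 ± 0.18, adjusted p = 0.09). At 5 h it was at 738, 760, 781 and 687 CPM in BMDM-WT and at 244, 551, 687 and 638 CPM in BMDM-Nur77-KO (-0.48 ± 0.18, adjusted p = 0.047). Without replicate 1 of BMDM-Nur77-KO, the library at 244 CPM, the difference at 5 h was -0.25 and did not pass. The call was also lost without any of 5 other libraries of that time, with values of -0.46 to -0.52. C1qa was the least abundant chain and did not pass the test between the genotypes at any time, with log2 fold changes of -0.04, 0.23, 0.05 and 0.29 (SE 0.16 each) at 0, 1, 5 and 18 h.

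With LPS the changes of the C1q chains were small beside those of C3, Cfb and C5ar1, and at 5 h their direction depended on the scaling. With TMM, C1qa rose at 5 h in BMDM-WT (0.36 ± 0.16, adjusted p = 0.041) and BMDM-Nur77-KO (0.45 ± 0.16, 0.012), as did C1qb (0.28 ± 0.10, 0.015 and 0.48 ± 0.10, 1.2e-04), and at 18 h C1qb (-0.28 ± 0.10, 0.017) and C1qc (-0.47 ± 0.18, 0.021) were lower in BMDM-WT. Each of these calls other than that of C1qb in BMDM-Nur77-KO was lost when at least 1 of the libraries was left out. From 5 to 18 h, C1qa (-0.45 ± 0.16, adjusted p = 0.013), C1qb (-0.56 ± 0.10, 1.6e-05) and C1qc (-0.55 ± 0.18, 0.0076) fell in BMDM-WT, and C1qb fell in BMDM-Nur77-KO (-0.28 ± 0.10, 0.017). With library totals, C1qa (-0.18) and C1qc (-0.27) in BMDM-WT and C1qb (-0.11) in BMDM-Nur77-KO did not pass over this interval. The call of C1qa in BMDM-WT was lost without replicate 3 at 18 h (-0.38). That of C1qb in BMDM-Nur77-KO was lost without any of 3 libraries (-0.21 to -0.24). Mean TMM factors were 1.24 (BMDM-WT) and 1.22 (BMDM-Nur77-KO) at 0 h but 0.793 and 0.786 at 5 h, and with library totals alone the median of all genes moved from -0.13 to -0.77 at 5 h in BMDM-WT. Under library totals the 5 h values of C1qa, C1qb and C1qc were -0.27, -0.36 and -0.56 in BMDM-WT and -0.17, -0.15 and -0.56 in BMDM-Nur77-KO. As a share of all tags, the 3 chains took 0.217% ± 0.0157, 0.178% ± 0.0164, 0.161% ± 0.00771 and 0.133% ± 0.0155 (SD, n = 4) of BMDM-WT libraries after 0, 1, 5 and 18 h, and 0.163% ± 0.0185, 0.173% ± 0.0158, 0.133% ± 0.0364 and 0.125% ± 0.0193 of BMDM-Nur77-KO libraries. The change of C5ar1 at 5 h in BMDM-Nur77-KO turned likewise, from 0.32 to -0.32.

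**Figure D3:**
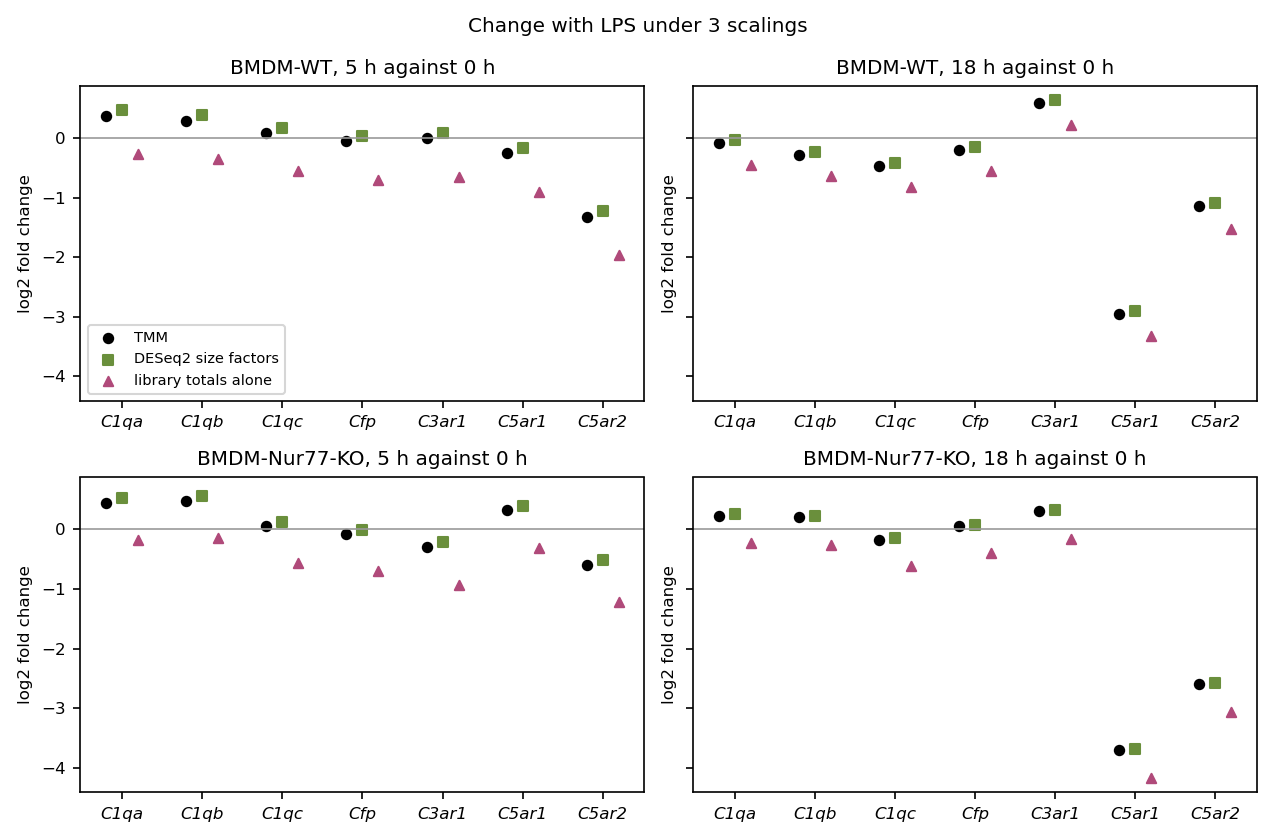
Log2 fold change with LPS at 5 and 18 h against 0 h in each genotype for 7 of the genes under TMM (circles), DESeq2's size factors (squares) and library totals alone (triangles); C3 and Cfb, with changes of 4.93 and more under TMM, are left out for scale. The triangles lie lower throughout, and those of C1qa and C1qb at 5 h lie below 0 where the circles and squares lie above it.

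Ratios within a library do not depend on the scaling. The RPKM ratio of C1qa to C1qc in BMDM-WT was 0.145 ± 0.0074, 0.154 ± 0.00665, 0.177 ± 0.00838 and 0.189 ± 0.00398 (SD, n = 4) after 0, 1, 5 and 18 h, and 0.194 ± 0.0166, 0.196 ± 0.014, 0.265 ± 0.0302 and 0.258 ± 0.0163 in BMDM-Nur77-KO. It was higher in every BMDM-Nur77-KO library than in every BMDM-WT library of the same time, by 0.42, 0.34, 0.58 and 0.45 on the log2 scale at 0, 1, 5 and 18 h (two-sided exact permutation test, p = 0.0286 each, the smallest that 4 against 4 libraries allow; adjusted p = 0.0457 over 16 ratio tests). The ratio of C1qc to C1qb was lower in BMDM-Nur77-KO at 0, 5 and 18 h (-0.07, -0.39 and -0.26, exact permutation p = 0.0286 and adjusted p = 0.0457 each) and did not pass at 1 h (-0.06, exact permutation p = 0.343). At 5 h it was -0.15 without replicate 1 of BMDM-Nur77-KO, whose ratio was 0.269, and at 0 h -0.04 without replicate 2 of BMDM-WT. With each library of the time left out in turn, a choice made after seeing the data, the groups for this ratio did not overlap at 0, 5 and 18 h, but the exact permutation p reached 0.114 at 0 h and 0.143 at 5 h. The groups for the ratio of C1qa to C1qc did not overlap at any time, with differences of 0.32 to 0.62 and an exact permutation p of at most 0.0571, which was reached at 1 h when any 1 BMDM-WT library was left out. The ratio of C1qa to C1qb was higher in BMDM-Nur77-KO at 0, 1 and 18 h (0.35, 0.28 and 0.19, exact permutation p = 0.0286 and adjusted p = 0.0457 each). At 5 h it overlapped (0.19, exact permutation p = 0.257). With 1 library left out, its exact permutation p reached 0.0571 at 1 and 18 h, and the 5 h difference was 0.14 to 0.35. The 5 h groups did not overlap without replicate 1 of BMDM-Nur77-KO (0.35, exact permutation p = 0.0286). They overlapped without any other library of that time. The C1q ratios share chains, so their tests are not independent. The C1q messages thus did not differ between the genotypes by equal amounts. The ratio of C5ar1 to C5ar2 overlapped between the genotypes at all 4 times (exact permutation p = 0.0857 to 0.143).

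**Figure D4:**
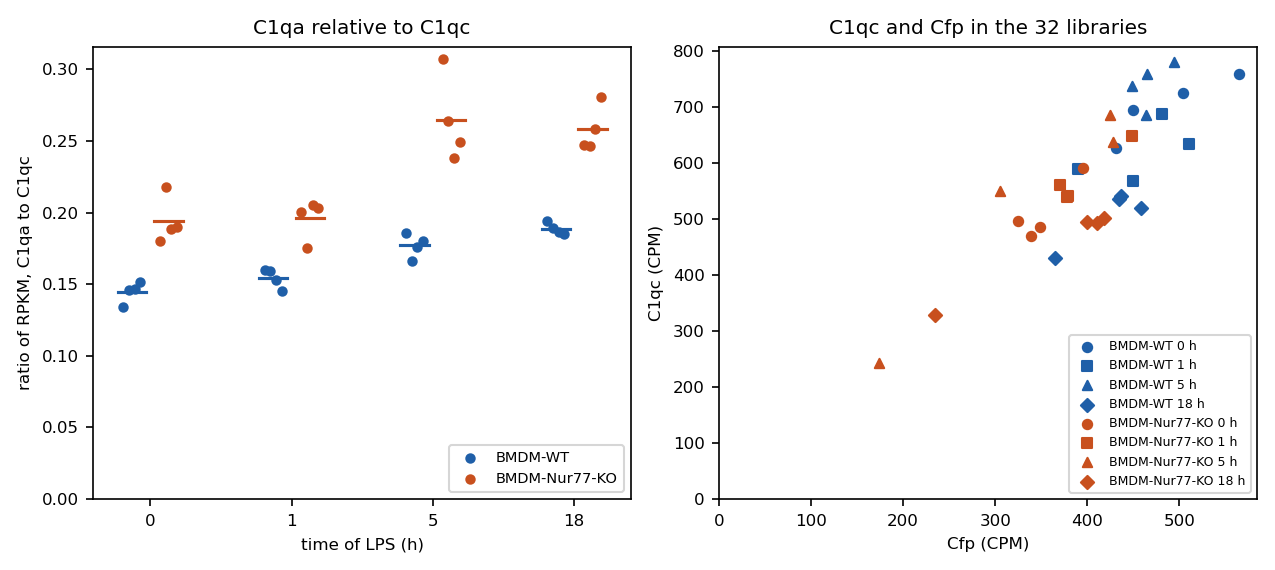
Left, ratio of C1qa to C1qc in RPKM in each library by time, with short lines at the group means; right, C1qc against Cfp in CPM in the 32 libraries, with colours for genotype and symbols for time. The orange points lie above the blue ones at each time on the left, and on the right 2 BMDM-Nur77-KO libraries, at 244 and 329 CPM of C1qc, lie at the low end of both genes.

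Cfp, the positive regulator that stabilizes the alternative pathway convertase, did not pass the test with LPS in either genotype at any time, although with library totals in place of TMM its change at 5 h was -0.70 in each genotype and passed. It was at 431, 450, 565 and 504 CPM in BMDM-WT and at 339, 349, 325 and 396 CPM in BMDM-Nur77-KO at 0 h, which did not overlap (-0.47 ± 0.18, adjusted p = 0.086). At 5 h it was at 449, 465, 494 and 464 CPM and at 174, 305, 425 and 428 CPM (-0.49 ± 0.18, adjusted p = 0.046), and without the library at 174 CPM the difference was -0.28 and did not pass. Without any of 5 other libraries of that time it was -0.45 to -0.51 and did not pass either. Cfp (chrX:20925454-20931555, minus strand; NM_008823) and C1qc had r = 0.89 over the 32 libraries, and the genes most like Cfp were Rps29 (0.927) and Atox1 (0.921), those most like C1qc Rps9 (0.964) and Eif4h (0.942).

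The libraries that lay low for Cfp and C1qc lay low for these ribosomal protein genes too. This follows in part from the choice, since Rps9 and Rps29 were picked for their likeness to C1qc and Cfp over the same libraries. In BMDM-Nur77-KO at 5 h, replicate 1 had the lowest Rps9 (199 CPM of a highest 450 CPM) and Rps29 (73.8 of 218 CPM), and in BMDM-Nur77-KO at 18 h replicate 4 had the lowest Rps9 (270 of 345 CPM) and Rps29 (78.6 of 200 CPM). Their part in the differences of C1qc and Cfp was not tested. C1qa was most like Capn1 (r = 0.871) and Bsdc1 (0.832), and C1qb most like Arhgdia (0.913) and Epop (0.866).

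Between BMDM-Nur77-KO and BMDM-WT, 3 of 9 members were lower and 6 did not pass at 0 h, where 5.88% of all genes tested were higher and 6.65% lower. At 1 h, 2 were lower and 7 did not pass (3.44% of all genes higher, 3.03% lower). At 5 h, 2 were higher, 5 lower and 2 did not pass (13.2% higher, 10.6% lower), and at 18 h, 2 were lower and 7 did not pass (12.3% higher, 9.44% lower). The median log2 fold change of the members was -0.30, -0.18, -0.27 and -0.16 at the 4 times, beside -0.03, -0.00, 0.02 and -0.00 for all genes. With the libraries of each time fitted alone, 5 members passed at 0 h (2441 of all genes). C3 was the 1 member that passed at 5 h (415 of all genes). The order of these times by members called depends on the fit.

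With LPS in BMDM-WT, 2 members rose at 1 h (10.4% of all genes higher, 9.81% lower), 4 rose and 2 fell at 5 h (30.8% and 39.1%), and 3 rose and 4 fell at 18 h (32.9% and 33.6%). In BMDM-Nur77-KO, 2 rose at 1 h (7.12% and 5.08%), 5 rose and 2 fell at 5 h (33.1% and 38.2%), and 3 rose and 2 fell at 18 h (34.7% and 34.6%). Comparisons with LPS share their 0 h libraries. From 5 to 18 h, 3 rose and 4 fell in BMDM-WT (35.6% and 33.9%), and 3 rose and 3 fell in BMDM-Nur77-KO (35.2% and 34.1%). C3, Cfb and C3ar1 rose and C5ar1 and C1qb fell over this interval in both genotypes.

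The response to LPS differed between the genotypes for 0 of 9 members at 1 h by edgeR and by DESeq2, with 1 at an unadjusted p under 0.05 by edgeR (0.0447% of all genes higher, 0.0179% lower). DESeq2 gave no adjusted p for up to 5639 of the genes in a comparison, and such genes count as not passing. By edgeR the response differed for C5ar1 at 5 h (1.81% and 1.33%). At 18 h it differed for C1qb and C3, which responded more positively in BMDM-Nur77-KO, and C5ar1 and C5ar2, which responded more negatively (5.72% and 3.73%).

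Of 46 further complement genes, 14 passed the filter on low values, and none of the 7 genes of the terminal pathway did. Between the genotypes, 3 of the 14 were higher and 1 lower in the knockout at each of 0, 1 and 5 h. At 18 h, 1 was higher and 5 lower. Of all genes tested, 5.88%, 3.44%, 13.2% and 12.3% were higher at 0, 1, 5 and 18 h, and 6.65%, 3.03%, 10.6% and 9.44% lower. Itgax, a chain of the C3 fragment receptor CR4, was higher at all 4 times (1.34 ± 0.10, 1.27 ± 0.10, 0.95 ± 0.10 and 1.55 ± 0.10). Cd55, which speeds decay of the convertases, was higher at 5 h (1.11 ± 0.23, adjusted p = 0.0011). Fcna, a lectin pathway ficolin, was higher at 1 h (0.70 ± 0.20, 0.025). Cd93 (-0.80 ± 0.08) and Itgam, a chain of the C3 fragment receptor CR3 (-0.64 ± 0.06), were lower at 18 h (adjusted p = 1.2e-08 and 1.6e-09).

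With LPS in BMDM-WT, 1 of the 14 rose and 1 fell at 1 h (10.4% of all genes higher, 9.81% lower). At 5 h, 4 rose and 4 fell (30.8% and 39.1%), and at 18 h, 4 rose and 7 fell (32.9% and 33.6%). C1ra, which encodes the C1r protease that works with C1q, went from 7.8 ± 1.37 CPM (SD, n = 4) at 0 h to 38.6 ± 2.39 CPM at 5 h and 36.9 ± 3.14 CPM at 18 h.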

How the data were processed

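The authors deposited 1 table of expected counts, without normalization: per the labels and the methods, paired-end reads were aligned to mm10 with HISAT2 2.1.0, alignments of low mapping quality were removed and tags were counted on RefSeq transcripts with HOMER, each mate adding 0.5. The libraries are strand-specific; whether the counting used strand is not given in the sources used here. Of 42361 transcripts, 93 had no gene name and were left out with 0.233% to 1.37% of a library's tags. Each gene was represented by its transcript of highest mean count, rounded to whole numbers. No 2 libraries were identical.

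The test took the 11186 genes whose mean RPKM exceeded 1 in any group and used edgeR 4.0.16 in R 4.3.3: TMM, the quasi-likelihood test on 1 fit over the 8 groups, and Benjamini-Hochberg adjustment over all genes tested. A call is an adjusted p under 0.05. The SE of a log2 fold change is its absolute value divided by the square root of the F statistic of the quasi-likelihood test. Lengths came from GENCODE and 300-base windows from RefSeq (GRCm38.p6). The script was tested on simulated data. Alternatives included DESeq2 1.42.0, other filters and scalings, a replicate block and leaving out each library. Library totals without TMM, leaving out 2 libraries together, and ratios without each library were added after seeing the data. The members and lists were chosen with earlier results of these data known. All members are named, with the 2 most similar genes of each by Pearson's r of log2 CPM and the further complement genes past a log2 fold change of 0.58 between the genotypes; those named for LPS were chosen after their values were seen. The values of 1 further complement gene are not reported here, although it stays in the counts.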

Additional observations from a re-analysis of the deposited data

Results flagged for a closer look

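Of 72 tests for 1 library standing apart in a group of 4 (Dixon's test, which chance passes in about 1 of 20 groups), 6 passed. C1qb was at 694 CPM in replicate 3 of BMDM-WT at 18 h, below the rest, and at 1010 CPM in replicate 1 of BMDM-Nur77-KO at 1 h, above the rest. In the same library of BMDM-Nur77-KO at 1 h, Cfp was at 449 CPM, above the rest. Replicate 4 of BMDM-Nur77-KO at 18 h lay below the rest for C1qb at 734 CPM, for C1qc at 329 CPM and for Cfp at 235 CPM. This library had the lowest Rps9 and Rps29 of its group, genes picked for their likeness to C1qc and Cfp over the same libraries.

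The response to LPS differed between the genotypes, by the interaction term of edgeR's quasi-likelihood test, for C5ar1 at 5 h (0.58 on the log2 scale) and at 18 h (-0.75), for C5ar2 at 18 h (-1.45), for C3 at 18 h (0.53) and for C1qb at 18 h (0.48). Of these, the values of C3 and C1qb did not pass without certain single libraries.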

How the results depend on the processing

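The differences of C3 at 0, 1 and 5 h and of C5ar1 and C5ar2 at 18 h between the genotypes kept their direction and passed under every alternative run apart from a limit on the fold change, which C3 did not reach. With a limit of 0.58 between genotypes and 1 for LPS and time, members past the test between the genotypes were 0, 0 and 1 after 0, 1 and 5 h, 0, 3 and 4 with LPS at 1, 5 and 18 h in BMDM-WT, 0 and 2 at 1 and 5 h in BMDM-Nur77-KO, 3 from 5 to 18 h in BMDM-WT, and 0 and 2 for the interaction at 5 and 18 h. All genes past the test were then 540, 315, 963 and 1098 between the genotypes at 0, 1, 5 and 18 h, 570, 3746 and 3065 with LPS in BMDM-WT, 505, 3620 and 3550 in BMDM-Nur77-KO, 3365 and 3202 from 5 to 18 h, and 223 and 695 for the interaction at 5 and 18 h. Between the genotypes at 18 h, C5ar1 (-1.05) and C5ar2 (-1.46) stayed past the limit. In BMDM-Nur77-KO, C3, Cfb, C5ar1 and C5ar2 stayed past it with LPS at 18 h and from 5 to 18 h. The limit removes small changes by its construction.

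Fitting only the libraries compared gave 5 members at 0 h and 1 at 5 h between the genotypes, and 2441, 1715, 415 and 1586 genes at 0, 1, 5 and 18 h (1402, 724, 2665 and 2430 with all libraries), 3805 genes with LPS at 1 h in BMDM-WT, and 343 and 165 genes for the interaction at 1 and 5 h (7 and 351). Without a filter, 4 members and 2282 of 18060 genes passed at 5 h between the genotypes. For the interaction at 1 h, 3 genes passed without a filter and 37 by DESeq2. Library totals alone gave 3423 genes with LPS at 1 h in BMDM-WT (2263 with TMM). They turned the 5 h changes to -0.27, -0.36 and -0.56 for C1qa, C1qb and C1qc in BMDM-WT, and to -0.17, -0.15, -0.56 and -0.32 for C1qa, C1qb, C1qc and C5ar1 in BMDM-Nur77-KO, and the 18 h changes there to -0.26 for C1qb and -0.16 for C3ar1.

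Same-numbered libraries of the genotypes deviated together with r over 0.1 in 7 of 16 pairs (-0.38 to 0.26). These values cannot show whether the numbers pair the samples, and the main test did not pair them. With a replicate block, 4 members passed at 5 h between the genotypes in place of 7 (C1qc, Cfp and C3ar1 did not). Of all genes, 2400 passed there in place of 2665.

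Leaving out 1 library at a time gave 838 to 1585 genes between the genotypes at 0 h (lowest when BMDM-Nur77-KO lacked replicate 1, and 860 when it lacked replicate 3), and 1496 to 3901 at 5 h (lowest without replicate 1 of BMDM-Nur77-KO, and 1765 without replicate 2 of BMDM-WT). Members past the test at 5 h were then 3 to 6. For the interaction, genes were 2 to 9 at 1 h and 225 to 504 at 5 h (lowest when the BMDM-Nur77-KO group of 0 h lacked replicate 3). At 18 h they were 892 to 1224. Members were 1 to 2 at 5 h and 2 to 4 at 18 h (2 without replicate 3 of BMDM-WT at 0 h). The BMDM-Nur77-KO libraries 5 h replicate 1 and 18 h replicate 4 were also left out together. Between the genotypes at 18 h, 4 members and 2720 genes then passed. The interaction then had 2 members and 580 genes at 5 h and 8 members and 2020 genes at 18 h. Where not named, the cause was not tested. Depth limits Cfb before LPS and C5ar2 at 18 h.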
